A study of Mus musculus with 12 samples.

Results

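The coenzyme Q biosynthesis genes comprised 10 of the 49585 genes measured in mouse haematopoietic stem cells (HSCs), namely *Pdss1*, *Pdss2*, *Coq2*, *Coq3*, *Coq4*, *Coq5*, *Coq6*, *Coq7*, *Coq9* and *Coq10b*. They were chosen by name and function, with earlier results of these data known, although no measured value entered the rule. The genes were found by their Ensembl identifiers. The cells were Lin-, Sca1+, ckit+, CD135- and CD150+ bone marrow cells, which the study treats as a mixture of long-term HSCs and the multipotent progenitors MPP2. RNA-seq was performed on 6 WT and 6 Pon2-/- mice, and each sample pooled 8 wells of 10 sorted cells from 1 mouse. WT mice were C57BL/6J animals from Charles River. Pon2-/- mice carried a β-geo gene trap, flanked by loxP sites, in intron 2 of *Pon2*, and are labelled with the same background. Mice of both genotypes were 10 to 14 weeks old and untreated, and the comparison asked how the loss of PON2 altered the transcriptome of HSCs.

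Coenzyme Q is the lipid that carries electrons within the inner mitochondrial membrane to complex III, and in its reduced form it is also an antioxidant of membranes. It is built from a ring derived from tyrosine and an isoprenoid tail derived from the mevalonate pathway, and the enzymes that modify the ring assemble into a complex on the matrix side of the membrane. PON2 (paraoxonase 2) is an antioxidative enzyme that has been reported to act at coenzyme Q in mitochondria, and long-term HSCs are known for a low reliance on mitochondrial respiration.

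Between 12967791 and 24228280 reads per sample were counted on genes, and 13941 to 15656 genes had at least 1 count. The level of *Pon2* in counts per 1000000 counts of the scaled library (CPM) was between 56.4 and 202.0 in WT samples (median 105.0) and between 1.16 and 33.1 in Pon2-/- samples (median 29.9), so that the genotypes did not overlap. Its log2 fold change was -2.13, with an adjusted p of 0.586 in edgeR and 0.0103 in DESeq2. Without Pon2-/- replicate 5, which had the lowest *Pon2* level, it was -1.88 with an adjusted p of 0.0295 in edgeR, so that this library decided the edgeR call. The summed level of 7 HSC markers was 1800 to 2418 CPM in WT and 1750 to 2322 CPM in Pon2-/- samples, and all 7 were detected in every sample. *Flt3*, which encodes the CD135 that the sort excluded, was detected at 4.59 to 49.3 CPM in WT and 26.7 to 65.0 CPM in Pon2-/- samples. Sums of 8 myeloid markers were 313.8 to 5816 CPM in WT and 267.8 to 9109 CPM in Pon2-/- samples, those of 5 B lineage markers 25.5 to 295.4 and 58.8 to 476.8 CPM, those of 7 erythroid markers 6.11 to 61.8 and 13.02 to 47.0 CPM, and those of 5 megakaryocyte markers 137.3 to 184.9 and 76.3 to 213.0 CPM. Among the erythroid markers, the globin gene *Hbb-bt* did not overlap between the genotypes, with 6.11 to 38.1 CPM in WT and 0 to 1.11 CPM in Pon2-/- samples (adjusted p = 0.265 in edgeR, 0.0109 in limma voom and 1.03e-06 in DESeq2). *Hbb-bt* has a close paralog, *Hbb-bs*, and its values are uncertain. *Klf1* and *Epor* had higher means in Pon2-/- samples, 0.544 against 6.73 CPM and 5.69 against 12.96 CPM, with adjusted p of 0.9999 for both in edgeR. T lineage markers were nearly absent, with a sum of at most 2.76 CPM and *Cd3e*, *Cd8a* and *Cd5* at 0 in all samples. Of the myeloid markers, *S100a8* had the highest means, 2336 CPM in WT and 2226 CPM in Pon2-/- samples. *Prtn3* followed with 314.0 and 308.2 CPM, and the others had means of at most 63.0 CPM. Whether these lineage transcripts came from other cells, and their part in the values below, was not tested. A lower level of a transcript in such a pool cannot be told apart from fewer cells that express it.

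All 10 genes are protein-coding, and none lies on chromosome 6, where *Pon2* is located. In the mouse genome GRCm38, the genes of the tail lie at chr2:22895522-22940266 (*Pdss1*) and chr10:43221486-43464882 (*Pdss2*), and the gene that joins ring and tail at chr5:100654723-100675140 (*Coq2*). RefSeq promoters of GRCm38.p6 matched 9 of the 10 genes, and *Coq5* was not matched. In the 250 bases before the start site, on both strands, the core motif of the mitochondrial regulator NRF1 (GCGCATGC) was present in 1 of these 9 genes, *Coq2*, and in 2.32% of 27025 genes. The antioxidant response element (TGACNNNGC) was present in 1 gene, *Coq9*, and in 10.2% of all genes, and the CCAAT box (CCAAT) in 3 genes, *Coq6*, *Coq7* and *Coq10b*, and in 34.5% of all genes. For *Coq9* and *Coq10b*, all 250 bases lie in annotated exons. No promoter of these 9 genes held more than 1 of the motifs, so that no match overlapped one of another motif. The 3 stretches shown lie outside annotated exons, those of the genes with the largest positive (*Coq2*) and negative (*Pdss2*) difference between the genotypes and that of *Coq7*, whose profile was closest to *Coq9*. These are given 5′ to 3′ on the strand of the gene, with motifs in capitals. The stretch of *Coq2* is chr5:100674285-100674506 on the minus strand, positions -250 to -29 from the start site, that of *Coq7* is chr7:118533357-118533606 on the minus strand and that of *Pdss2* is chr10:43221236-43221485 on the plus strand, both at positions -250 to -1.
*Coq2*: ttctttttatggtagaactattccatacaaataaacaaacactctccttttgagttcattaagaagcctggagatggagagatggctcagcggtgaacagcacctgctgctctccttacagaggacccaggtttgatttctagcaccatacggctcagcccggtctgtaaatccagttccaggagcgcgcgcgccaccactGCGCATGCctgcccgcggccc
*Coq7*: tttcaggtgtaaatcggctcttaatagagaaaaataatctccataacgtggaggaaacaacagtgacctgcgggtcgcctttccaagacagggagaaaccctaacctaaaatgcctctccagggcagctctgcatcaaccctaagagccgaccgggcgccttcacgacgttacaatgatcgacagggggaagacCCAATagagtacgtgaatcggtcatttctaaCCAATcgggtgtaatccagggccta
*Pdss2*: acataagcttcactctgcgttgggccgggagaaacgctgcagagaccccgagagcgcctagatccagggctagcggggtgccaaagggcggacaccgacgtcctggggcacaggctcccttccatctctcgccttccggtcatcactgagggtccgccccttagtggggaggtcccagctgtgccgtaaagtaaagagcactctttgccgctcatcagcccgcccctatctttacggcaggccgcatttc
The *Coq2* stretch holds 1 NRF1 core motif, the *Coq7* stretch 2 CCAAT boxes and the *Pdss2* stretch none of the 3 motifs. These matches describe the letters only.

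None of the coenzyme Q genes passed the thresholds of differential expression between HSCs of WT and Pon2-/- mice. All 10 passed the filter on low counts, and 0 were called by edgeR's quasi-likelihood test at a false discovery rate (FDR, Benjamini-Hochberg over 11848 genes) below 0.05 with an absolute log2 fold change above 1. Among all tested genes 24 were called, or 0.203%, of which 15 were higher and 9 lower in Pon2-/- HSCs. DESeq2 called 0 of the 10 genes and 1.79% of 16998 genes, and limma voom called 0 of the 10 genes and 23 of all tested genes, or 0.194%. With shares this small, 0 of 10 is also what the background would give. An unadjusted edgeR p below 0.05 was found for 0 of the 10 genes and 3.13% of all tested genes, and genotypes that did not overlap for 0 of the 10 genes and 0.633% of all tested genes. Of the log2 fold changes, 6 were positive and 4 negative. Their median was 0.07 for the coenzyme Q genes and -0.01 for all tested genes. The intervals were wide, with a median width of 2.64 on the log2 scale, so that sizeable changes of single genes were not detectable with 6 mice per genotype.

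**Figure D1:**
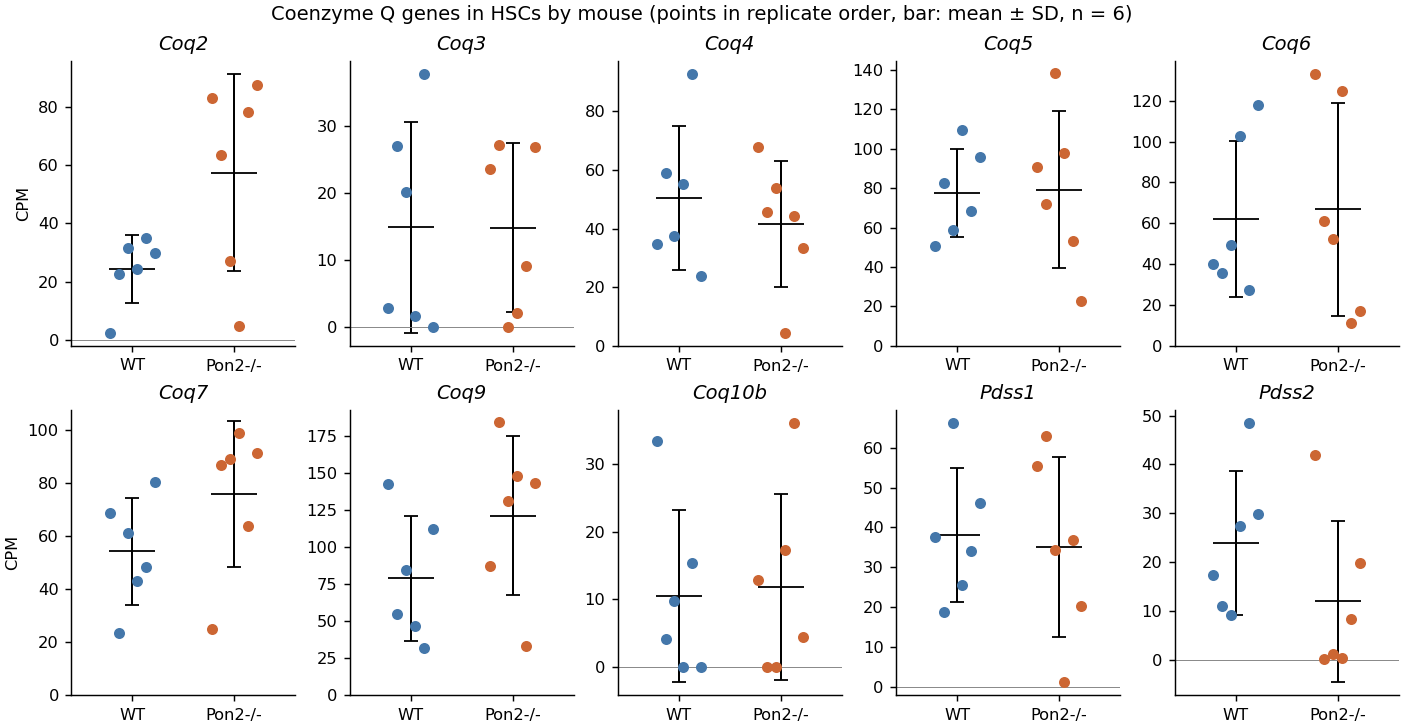
CPM of the 10 coenzyme Q genes in each WT (blue) and Pon2-/- (orange) mouse, with the mean and SD of 6 mice per genotype in black. The genotypes overlap for all 10 genes, and 4 of 6 Pon2-/- mice lie above the highest WT mouse for *Coq2*.

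PDSS1 and PDSS2 are the subunits of the synthase that makes the isoprenoid tail. *Pdss2* had the largest negative difference of the 10 genes. Its level was 9.20, 11.03, 17.4, 27.5, 29.8 and 48.5 CPM in the 6 WT samples and 0.0431, 0.277, 1.25, 8.33, 19.8 and 41.9 CPM in the 6 Pon2-/- samples. In 4 Pon2-/- samples the level was below the lowest WT sample. Of these 3 held at most 22 counts. A further Pon2-/- sample was close to the highest WT sample. The means were 23.9 ± 14.7 and 11.9 ± 16.5 CPM (SD, n = 6), and the log2 fold change was -1.002 (95% interval -3.50 to 1.495, adjusted p = 0.9999 in edgeR). The mean log2 CPM differed by -2.83 (exact permutation test, two-sided, p = 0.0823), a larger difference than that of the means, since the 3 lowest samples weigh more on a log scale. Limma voom gave an unadjusted p of 0.0478 and an adjusted p of 0.781. Without Pon2-/- replicate 1, the log2 fold change was -2.02.

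PDSS1 is the partner subunit. The level of *Pdss1* was 18.8 to 66.2 CPM in WT (median 35.9) and 1.25 to 62.9 CPM in Pon2-/- samples (median 35.6), with means of 38.1 ± 16.7 and 35.2 ± 22.6 CPM (SD, n = 6) and a log2 fold change of -0.12 (95% interval -1.50 to 1.27). The low value of 1.25 CPM came from Pon2-/- replicate 4, while the other 5 Pon2-/- samples were at or above 20.2 CPM. The mean log2 CPM differed by -0.66 (exact permutation test, two-sided, p = 0.647), and limma voom gave a log2 fold change of -0.66 (adjusted p = 0.919). Without that sample, the log2 fold change in edgeR was 0.13. Exons of *Pdss1* share 9.44% of their bases with genes on the other strand, *Abi1* and A130006I12Rik. Reads of unstranded libraries that lie in these bases cannot be assigned to 1 gene.

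COQ2 attaches the isoprenoid tail to the ring. *Coq2* had the largest positive difference of the 10 genes. Its level was 2.38, 22.7, 24.3, 30.0, 31.6 and 34.9 CPM in the 6 WT samples and 4.85, 27.2, 63.7, 78.4, 83.2 and 87.7 CPM in the 6 Pon2-/- samples. In Pon2-/- mice, 4 samples were above the highest WT sample and 2 within the range of WT. The lowest WT sample was far below its group, whereas the Pon2-/- samples were spread widely, from 4.85 to 87.7 CPM. The means were 24.3 ± 11.7 CPM in WT and 57.5 ± 33.9 CPM in Pon2-/- samples (SD, n = 6). The log2 fold change was 1.24 with a standard error of 0.67 (95% interval -0.19 to 2.68), and neither the adjusted p of 0.9999 in edgeR (unadjusted p = 0.0844) nor the exact permutation test of mean log2 CPM (p = 0.245, two-sided) passed the threshold. The log2 fold change was 1.00 without WT replicate 1 and 1.48 without Pon2-/- replicate 4, which were the lowest samples of their genotypes. Over all alternatives the adjusted p lay between 0.386 and 1.0. *Gm6728*, which is 94.4% identical to *Coq2* over 1095 bases, held 0 counts in WT and 2 counts in Pon2-/- samples, against 2550 and 6570 counts on *Coq2*.

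The ring is modified by methyltransferases and hydroxylases. COQ3 is an O-methyltransferase and COQ5 a C-methyltransferase. *Coq5* (chr5:115279666-115296972) had levels of 50.8 to 109.4 CPM in WT (median 75.4) and 22.8 to 138.6 CPM in Pon2-/- samples (median 81.5). Its means of 77.5 ± 22.5 and 79.2 ± 39.8 CPM (SD, n = 6) were close, and the log2 fold change was 0.03 with the narrowest interval of the 10 genes, -0.75 to 0.81. *Coq3* (chr4:21879673-21912162) was detected unevenly. It held 0 counts in 1 sample of each genotype, 1.64 and 2.80 CPM in 2 further WT samples and 2.15 CPM in 1 further Pon2-/- sample, while the remaining 7 samples were between 9.16 and 37.7 CPM. A count of 0 allows up to 3 counts, or 0.124 to 0.231 CPM depending on the depth of the sample. The means of *Coq3* were 14.9 ± 15.7 and 14.8 ± 12.6 CPM (SD, n = 6), with a log2 fold change of -0.01 (95% interval -3.04 to 3.03).

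COQ6 and COQ7 are hydroxylases of the ring, and COQ9 is a lipid-binding protein that presents the substrate to COQ7. *Coq9* (chr8:94838321-94854895) had levels of 31.6, 46.7, 54.9, 84.1, 111.9 and 142.4 CPM in the 6 WT samples and 33.0, 86.8, 130.7, 143.2, 147.8 and 184.5 CPM in the 6 Pon2-/- samples. Of the Pon2-/- samples, 3 were above the highest WT sample, and the lowest samples of both genotypes were at nearly the same level. The means were 78.6 ± 42.4 and 121.0 ± 53.4 CPM (SD, n = 6), and the log2 fold change was 0.62 (95% interval -0.28 to 1.52, exact permutation test p = 0.229, two-sided). *Coq7* (chr7:118509659-118533356) had levels of 23.2, 43.1, 48.1, 61.2, 68.7 and 80.4 CPM in the 6 WT samples and 24.9, 63.8, 86.6, 89.2, 91.5 and 99.0 CPM in the 6 Pon2-/- samples. Of these Pon2-/- samples, 4 were above the highest WT sample and 1 was near the lowest. The means were 54.1 ± 20.3 and 75.8 ± 27.6 CPM (SD, n = 6), with a log2 fold change of 0.49 (95% interval -0.30 to 1.27, exact permutation test p = 0.284, two-sided). The log2 fold changes of both genes were positive in every fit and without each sample in turn, but no fit passed the threshold. *Coq6* (chr12:84361657-84373796) had levels of 27.6 to 118.2 CPM in WT (median 44.7) and 11.3 to 133.3 CPM in Pon2-/- samples (median 56.9). Among Pon2-/- samples, 2 were above and 2 below the whole range of WT, and the log2 fold change was 0.10 (95% interval -1.16 to 1.36).

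COQ4 belongs to the complex that the ring-modifying enzymes form, and COQ10B is a mitochondrial protein that binds coenzyme Q. *Coq4* (chr2:29787493-29797935) had levels of 23.8 to 92.7 CPM in WT (median 46.4) and 4.51 to 67.9 CPM in Pon2-/- samples (median 44.9). Its means were 50.4 ± 24.5 and 41.5 ± 21.5 CPM (SD, n = 6), and the log2 fold change of -0.28 (95% interval -1.40 to 0.84) was -0.05 without Pon2-/- replicate 4 and -0.02 without WT replicate 5. *Coq4* shares 27.1% of its exon bases with *Trub2* on the other strand. Reads of unstranded libraries in these bases cannot be assigned to 1 gene, so that the values of *Coq4* are uncertain. *Trub2* held 3296 counts in WT and 2155 in Pon2-/- samples, against 5229 and 4714 counts on *Coq4*. *Coq10b* (chr1:55052770-55072702) held 0 counts in 2 samples of each genotype and reached 33.4 CPM in WT and 36.1 CPM in Pon2-/- samples. Its means were 10.5 ± 12.7 and 11.8 ± 13.8 CPM (SD, n = 6), with the widest interval of the 10 genes, -3.60 to 3.94. *Gm4899*, 95.4% identical to *Coq10b* over 719 bases, held 2 counts in all samples together.

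**Figure D2:**
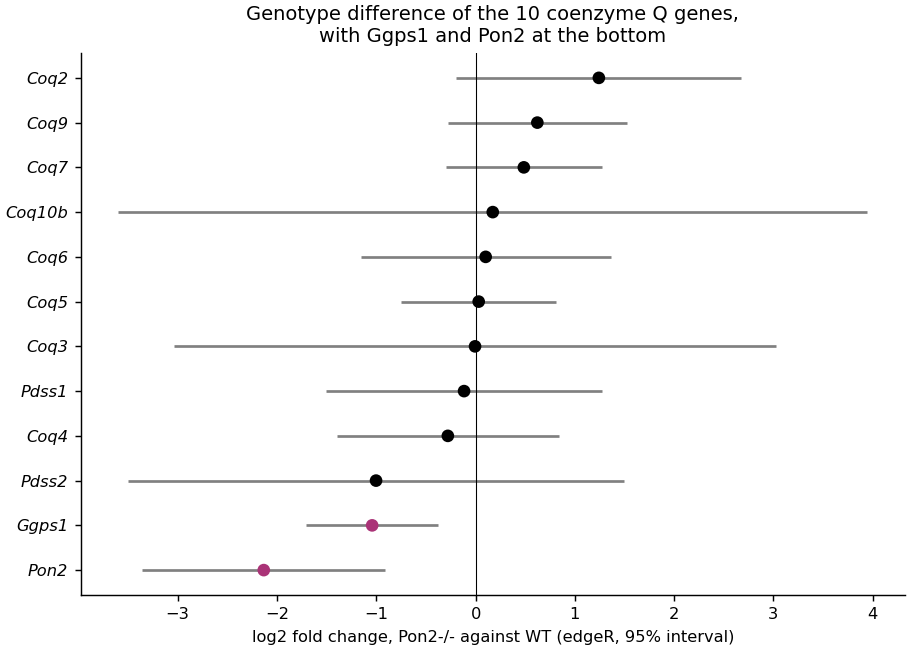
Log2 fold change of Pon2-/- against WT HSCs with its 95% interval from edgeR (6 mice per genotype), for the 10 coenzyme Q genes (black) and for *Ggps1* and *Pon2* (purple). All 10 intervals of the coenzyme Q genes include 0.

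The order of levels between genes was taken per length, as CPM per kilobase of merged exons. These lengths include bases shared with other genes, 27.1% for *Coq4* and 9.44% for *Pdss1*, so that the levels of both are uncertain. *Coq9* was highest, with 25.7 ± 13.9 in WT and 39.6 ± 17.5 in Pon2-/- samples (SD, n = 6), followed by *Coq5* with 25.5 ± 7.41 and 26.1 ± 13.1. The order of the mean log2 level went on with *Coq6*, *Coq4*, *Coq2*, *Coq7*, *Pdss1*, *Coq3*, *Pdss2* and *Coq10b*. Over all samples *Coq10b* was last, with 2.17 ± 2.65 in WT and 2.45 ± 2.88 in Pon2-/- samples, whereas in Pon2-/- samples alone *Pdss2* was last with 2.00 ± 2.77. For each of the 9 pairs of neighbours, the difference of log2 levels within samples was tested over all samples. None passed the threshold (exact sign-flip permutation test, two-sided, 0 of 9 with an adjusted p below 0.05). The order was taken from the same values. The widest step, 1.91 on the log2 scale, separated *Pdss1* from *Coq3*, with an exact permutation p of 0.0586 and an adjusted p of 0.264. Ordered within each genotype, *Coq2* held rank 7 in WT and rank 3 in Pon2-/- samples, whereas *Coq5* held rank 1 and 2 and *Coq9* rank 2 and 1. With the length of the longest transcript in place of merged exons, 1 of 9 pairs differed and the order changed. It then ran *Coq9*, *Coq5*, *Coq7*, *Coq6*, *Coq2*, *Pdss1*, *Coq4*, *Coq3*, *Pdss2* and *Coq10b*, so that the middle ranks depended on the length used.

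**Figure D3:**
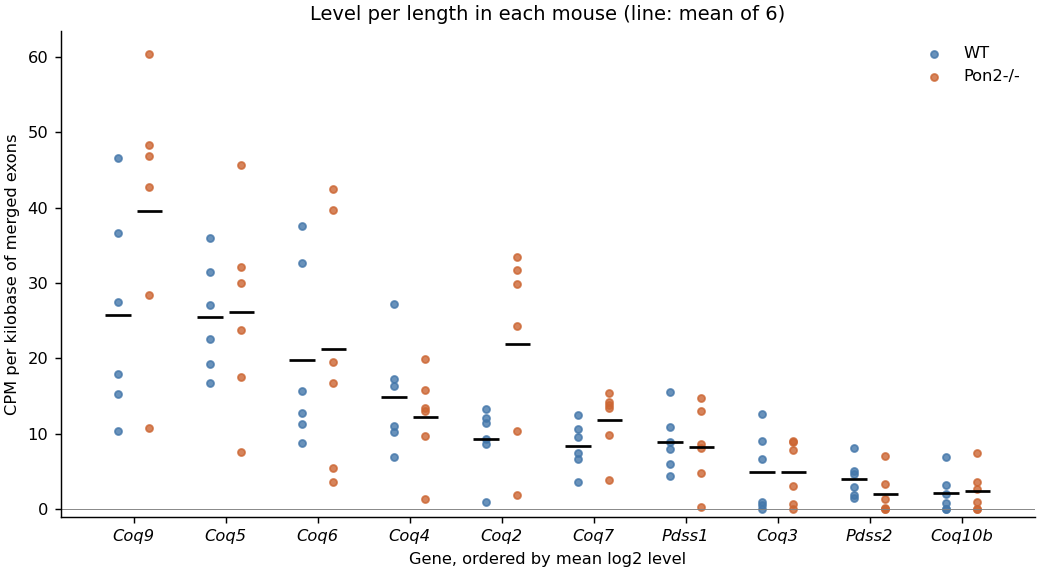
CPM per kilobase of merged exons in each WT (blue) and Pon2-/- (orange) mouse, with the mean of 6 mice as a line and genes ordered by their mean log2 level. Mean levels run from 39.6 for *Coq9* in Pon2-/- mice to 2.00 for *Pdss2* in the same mice, with wide spread within each gene.

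The spread among mice was large for each gene. The coefficient of variation over the 12 samples was between 39.3% (*Coq5*) and 114.1% (*Coq10b*), with a median of 59.8%. Counting error alone gives 2.30% to 6.74% for these genes. The median over 6988 genes with mean CPM within the range of the 10 genes was 58.4%, so that the coenzyme Q genes were about as variable as other genes of their level. A count of 0 in at least 1 sample was found for 2 of the 10 genes, for 20.8% of the genes in that range and for 28.0% of all tested genes.

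Low values of several coenzyme Q genes fell in the same library. In Pon2-/- replicate 4, 5 of the 10 genes (*Coq2*, *Coq3*, *Coq4*, *Pdss1* and *Pdss2*) were below 25% of their median over the 12 samples, and in each of the other samples between 0 and 3 genes were. Among the 6988 genes of that range of mean CPM, 10.6% were this low in Pon2-/- replicate 4, within the 5.52% to 12.95% of all samples. *Coq9* and *Coq7* of that library were at 147.8 and 99.0 CPM, the latter the highest of all samples. Its B lineage markers summed to 476.8 CPM, the highest of the 12 samples, and its megakaryocyte markers to 76.3 CPM, the lowest, where the other 11 samples were at 137.3 to 213.0 CPM. *Flt3* was at 65.0 CPM, the highest of the 12 samples. Its HSC markers summed to 2322 CPM and its total was 14671353 counts. The part of these differences in the low values was not tested.

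**Figure D4:**
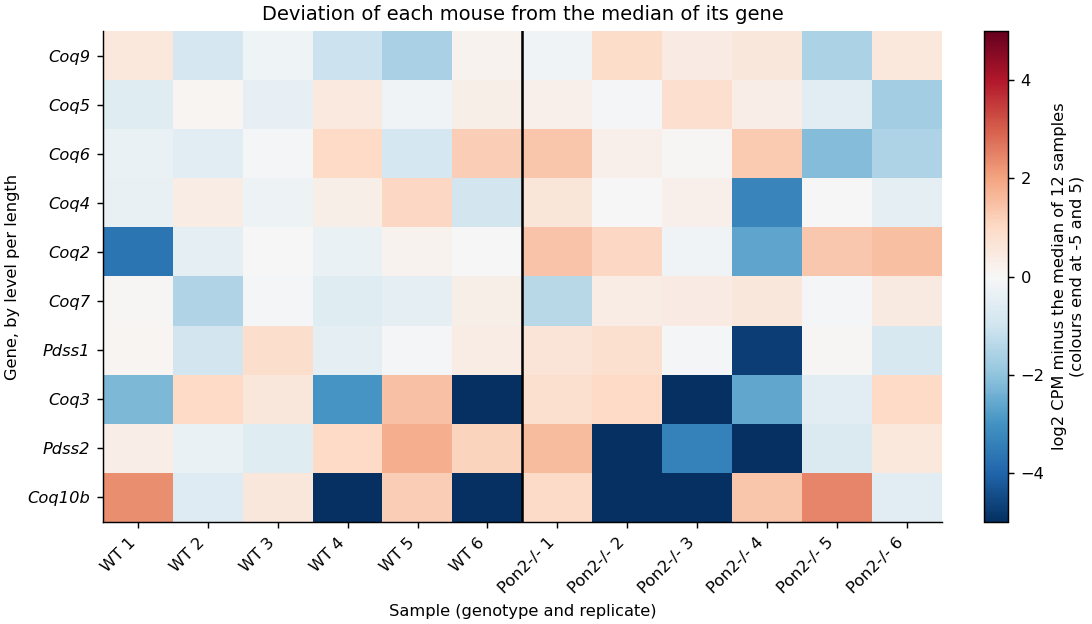
Log2 CPM (prior count 2) of each coenzyme Q gene (rows) in each mouse (columns) minus the median of the gene over 12 mice. Blue fields are low values, and 5 of the 10 genes are low in Pon2-/- replicate 4.

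The summed level of the 10 genes was 338.8 to 535.9 CPM in WT samples (434.6 ± 62.5, SD, n = 6) and 374.4 to 621.0 CPM in Pon2-/- samples (515.6 ± 91.3). The difference of 81.0 CPM was 59.9 to 109.2 CPM when each sample was left out in turn. *Coq9* gave the largest share of the sum in 5 of the 12 samples, up to 33.1% in WT replicate 1. These shares are of CPM that was not scaled by gene length.

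Over the 12 samples, the profile of *Coq9* was compared with all others by the SD of the difference of log2 CPM. The 3 closest genes were *Tmem70* (0.39), *Dlgap4* (0.47) and *Zfand1* (0.51), against a median of 1.37 over 11847 genes. *Coq7*, whose product acts together with COQ9, was the closest of the coenzyme Q genes with 0.76, and 265 genes were closer. *Coq5* and *Coq6* followed with 1.15 and 1.16, while the other 6 genes were between 1.72 and 3.86.

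Genes upstream and downstream of coenzyme Q synthesis were also compared, in 4 lists. The lists held 5, 12, 13 and 11 tested genes. EdgeR called 0 of their genes, 3 had an unadjusted p below 0.05 (*Ggps1*, *Fdft1* and *mt-Cytb*), and DESeq2 called 1, *Ggps1*. Among all tested genes edgeR called 0.203%, and 3.13% had an unadjusted edgeR p below 0.05. DESeq2 called 1.79% of 16998 genes. Whether the lists departed from these shares was not tested. Of 7 other coenzyme Q genes 6 were found and 5 tested, 0 were called, and their log2 fold changes were between -0.39 and 0.67 with a median of -0.15. The smallest unadjusted p among them belonged to *Pptc7*, a mitochondrial phosphatase of the coenzyme Q pathway, with 10.0 ± 8.999 CPM in WT and 15.9 ± 15.7 CPM in Pon2-/- samples (SD, n = 6). *Hpdl* held 0 counts in every sample. Of 14 genes for enzymes that pass electrons to coenzyme Q, 13 were tested and 0 called, with a median log2 fold change of 0.03. The smallest unadjusted p belonged to *Sdhc*, a membrane anchor of complex II, with 242.3 ± 49.2 and 281.8 ± 33.4 CPM (log2 fold change 0.22). All 11 genes of complex III and cytochrome c were tested and 0 called, with a median log2 fold change of -0.10. Of these log2 fold changes 4 were positive and 7 negative, and the smallest unadjusted p belonged to *mt-Cytb*, which was positive. *mt-Cytb*, the mitochondrially encoded subunit that binds coenzyme Q, was at 12031 ± 1526 CPM in WT and 15222 ± 1830 CPM in Pon2-/- samples (SD, n = 6), a log2 fold change of 0.34 (exact permutation test, two-sided, p = 0.0108, adjusted p in edgeR 0.918). Its adjusted p over all alternatives was between 0.104 and 1.0. All mitochondrially encoded genes together took 4.89% to 8.54% of the counts of WT and 5.07% to 9.55% of those of Pon2-/- samples, and their part in this value was not tested.

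In the supply of isoprenoids through the mevalonate pathway, all 12 genes were tested and 0 called by edgeR, 4 log2 fold changes were positive and 8 negative, and their median was -0.21. *Ggps1* encodes the synthase of geranylgeranyl diphosphate, an isoprenoid used for protein prenylation. Genotypes did not overlap for 0.633% of all tested genes, and *Ggps1* was the only such gene of all 5 lists. Its level was 43.6, 50.5, 52.1, 64.3, 67.1 and 73.8 CPM in the 6 WT samples and 16.0, 25.9, 28.0, 30.1, 33.9 and 36.7 CPM in the 6 Pon2-/- samples. It was lower in 6 of 6 Pon2-/- samples than in any WT sample. The means were 58.6 ± 11.6 and 28.4 ± 7.24 CPM (SD, n = 6), and the log2 fold change was -1.04 with a standard error of 0.31 (95% interval -1.71 to -0.37). The exact permutation test gave p = 0.00216, which is the smallest value that 6 against 6 samples allow. This value follows from genotypes that do not overlap, for which *Ggps1* was named, so that it adds no support. The adjusted p was 0.856 in edgeR, 0.284 in limma voom and 0.000387 in DESeq2, so that the call depended on the tool. *Gm5630* is 97.2% identical to *Ggps1* over 903 bases. No entry of that name was found among the counted genes, so that its counts could not be given. *Fdft1*, the squalene synthase that draws isoprenoids into sterols, had levels of 10.4 to 71.4 CPM in WT and 12.3 to 28.4 CPM in Pon2-/- samples. *Fdft1* shares 18.3% of its exon bases with *Ctsb* on the other strand, so that its values are uncertain in unstranded libraries. Its means of 41.2 ± 21.7 and 18.1 ± 6.69 CPM (SD, n = 6) gave a log2 fold change of -1.19 (exact permutation test, two-sided, p = 0.0519, adjusted p in edgeR 0.9999), and it was chosen for mention after its values were seen. In this list, *Ggps1* and *Fdft1* had an unadjusted p below 0.05 in edgeR (0.0339 for *Fdft1*), as had 3.13% of all tested genes.

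**Figure D5:**
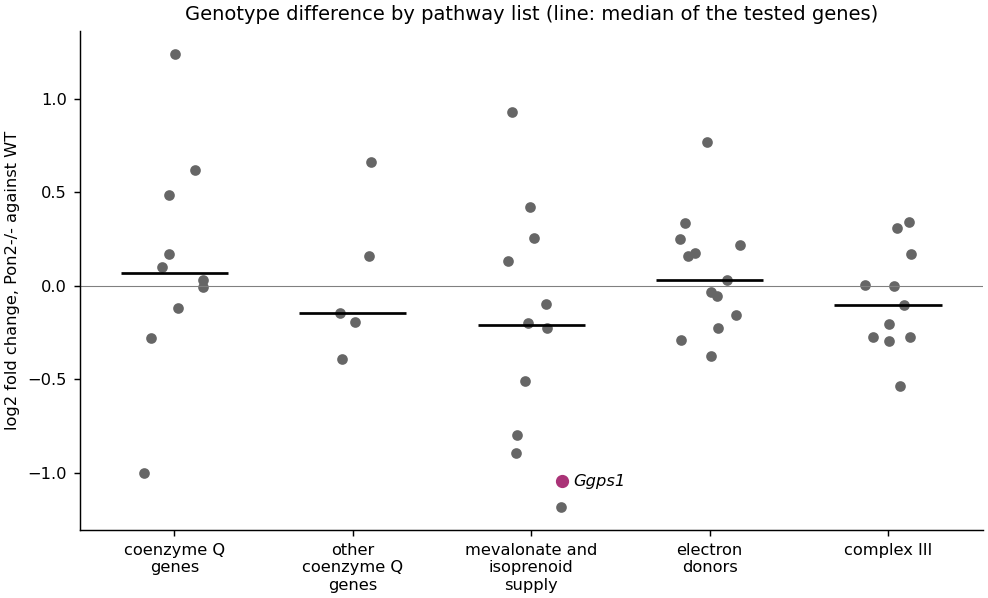
Log2 fold change of Pon2-/- against WT HSCs for the tested genes of the 10 coenzyme Q genes and of the 4 lists around them, with the median as a line. *Ggps1* (purple) is the gene with non-overlapping genotypes, and the medians lie between -0.21 and 0.07.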

How the data were processed

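The deposited values are counts of reads per gene, 1 table per mouse. According to the labels and the methods, the authors trimmed adapters with Trimmomatic 0.36, mapped Smart-seq2 reads to GRCm38.p5 with STAR 2.5.3a and counted them on GENCODE release M12. The counts were taken as unstranded, were neither normalized nor filtered, and do not show the 8 wells of a mouse. Gene names and positions came from GENCODE M21.

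Genotypes were compared with the quasi-likelihood test of edgeR 4.0.16 in R 4.3.3, after TMM scaling and filterByExpr and with no other term than genotype. A call required both an FDR below 0.05 and a log2 fold change beyond 1 in either direction. Log2 CPM used a prior count of 2. Single genes were compared by exact permutation tests over all 924 assignments of the samples, and copies were searched with minimap2 2.31-r1302. Alternatives were DESeq2 1.42.0 and its size factors, limma 3.58.1 (voom with sample quality weights), other filters, the FDR alone, a prior count of 0.5, a replicate block and leaving out each sample. The scripts were tested on simulated data. The 95% intervals of log2 fold changes come from the edgeR fit and reflect the spread between mice. The limit that a count of 0 allows and the counting coefficients of variation cover counting error only, since PCR copies are not independent molecules.

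The genes and lists were chosen with earlier results of these data known. Named are the 10 genes, *Pon2*, of each list the genes that were called, did not overlap or had the smallest unadjusted p, and the 3 genes most like the highest coenzyme Q gene. A symbol of 1 listed gene (*Fdx2*) was not matched. Replicates are mice, and p-values refer to the spread between them.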

Additional observations from a re-analysis of the deposited data

Results flagged for a closer look

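Each gene named for the comparison of genotypes was examined for a sample that stood apart from the other 5 of its genotype, by the gap to the nearest sample divided by the range, with a critical value of 0.625. Of 34 groups examined 2 had such a sample, and chance gives about 1 in 20. *Coq2* was at 2.38 CPM in WT replicate 1, where the other WT samples lay between 22.7 and 34.9 CPM, with a ratio of 0.626, close to the critical value. *Pon2* was at 1.16 CPM in Pon2-/- replicate 5, where the other Pon2-/- samples lay between 28.4 and 33.1 CPM. Without that library the edgeR adjusted p of *Pon2* was 0.0295, against 0.586 with all samples. The cause of neither value was tested.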

How the results depend on the processing

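No coenzyme Q gene was called under any alternative, and none had non-overlapping genotypes when a sample was left out or raw totals were used. The number of called genes among all tested genes, 24, was 305 with DESeq2, 8 without a filter beyond 1 read, 5 with a replicate block and 20 to 28 when each sample was left out. Correlations of same-numbered samples were between 0.0009 and 0.043. Those of differently numbered samples are not given, so that these values cannot decide whether the numbers mark pairs. The labels do not say so, and the paper calls the WT cells of a figure matched without saying how. The replicate block is therefore given here only. The direction was kept in all fits for *Coq2*, *Coq4*, *Coq7*, *Coq9* and *Pdss2*, whose log2 fold changes were 1.00 to 1.48, -0.48 to -0.02, 0.33 to 0.67, 0.43 to 0.88 and -2.94 to -0.68. It turned for genes with log2 fold changes near 0. With limma voom, *Coq3* was at 0.57, *Coq5* at -0.16 and *Coq6* at -0.44. With the replicate block, *Coq3* was at 0.30, *Coq5* at -0.093, *Coq6* at -0.13 and *Coq10b* at -0.066. Leaving out 1 sample gave -0.28 to 0.51 for *Coq3*, -0.21 to 0.22 for *Coq5*, -0.22 to 0.38 for *Coq6*, -0.60 to 1.00 for *Coq10b* and -0.37 to 0.13 for *Pdss1*. The samples whose omission turned the direction were WT 2, 3 and 5 and Pon2-/- 3, 4 and 5 for *Coq3*, WT 1, 3 and 5 and Pon2-/- 1, 3 and 4 for *Coq5*, WT 2 and 5 and Pon2-/- 1 and 4 for *Coq6*, WT 4 and 6 and Pon2-/- 5 for *Coq10b*, and WT 3 and Pon2-/- 4 and 6 for *Pdss1*. For *Pdss1*, limma voom gave -0.66 and the replicate block -0.53. The cause was not tested. With the longest transcript as length, the order of levels changed, and 1 pair of neighbours in it differed, against 0 with merged exons. With 6 mice per genotype and a median coefficient of biological variation of 73.1%, failure to call a gene does not show equal levels.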
